A study of Mus musculus with 12 samples.

Results

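Laminin and tenascin genes were followed in mouse embryonic fibroblasts (MEFs) of a control line and of a line labelled as a double knockout (DKO) of the transcription factor genes Tfeb and Tfe3, before and after DNA damage by etoposide. The 9 genes are the laminin alpha chain genes Lama2, Lama4 and Lama5, the beta chain genes Lamb1 and Lamb2, the gamma chain gene Lamc1, and the tenascin genes Tnc, Tnn and Tnxb, out of 24421 genes counted. They were chosen from the laminin and tenascin families with measured values of these same libraries known, and Tnn was selected on its difference between the genotypes after etoposide, so that difference is given as a description with no test. So are the etoposide changes and the interaction of Tnn, which use the same treated libraries. All 9 passed edgeR's filter on low counts, as did 15220 genes in all, among them 5 further genes of these families that are described later (Lama1, Lama3, Lamb3, Lamc3 and Tnr).

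The RNA came from 12 libraries in 4 groups of 3: Null MEFs and CRISPR TFEB/TFE3 DKO MEFs, each as untreated controls and after 8 h in 100 µM etoposide, a drug that traps topoisomerase II on DNA and leaves double-strand breaks. The labels call the control line Null and the study's text has WT, and these were taken as the same line. The study's methods describe the controls as given DMSO where the labels have them as untreated. Both are immortalized lines in the same growth medium, each genotype is represented by 1 line, and nothing says that the 3 replicates of a group came from separate cultures. They may be technical replicates. Technical or not, the p-values measure only the spread between these samples, not between independent lines.

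Laminins are secreted heterotrimers of an alpha, a beta and a gamma chain that polymerize into the sheet of a basement membrane and bind cells through integrins and dystroglycan. Tenascins are a separate family of large matrix proteins, built of repeats that resemble epidermal growth factor and fibronectin, which modulate how cells attach to fibronectin and collagen. Fibroblasts secrete members of both families, and Tnc in particular is known from embryonic mesenchyme, healing wounds and tumor stroma.

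Counts on genes ran from 45577023 to 104120871 per library, and levels are given in CPM, which scales each library to the same total after TMM adjustment. Tfeb, the first targeted gene, stood at 38.9, 39.2 and 42.1 CPM in the untreated Null libraries and at 4.60, 6.09 and 4.68 CPM in the untreated DKO libraries. After etoposide it stood at 11.4, 10.2 and 10.4 CPM in Null and 1.92, 1.61 and 2.20 CPM in DKO MEFs. Every DKO library was thus below every Null library of its treatment, with log2 fold changes of -2.94 untreated (SE 0.0919, edgeR adjusted p = 1.05e-14) and -2.46 after etoposide (SE 0.121, edgeR adjusted p = 5.06e-12). Tfe3 RNA was present in both genotypes, at 113 ± 2.83 CPM in untreated Null and 92.7 ± 1.61 CPM in untreated DKO MEFs (mean ± SD of 3), differing by -0.29 on the log2 scale (SE 0.0416, edgeR adjusted p = 8.67e-06). After etoposide its levels were 68.7 ± 0.778 and 68.5 ± 4.37 CPM (SD, n = 3 each), and the libraries of the genotypes overlapped. These counts do not show a loss of Tfe3 RNA, and they do not measure the protein. The 10 fibroblast markers checked summed to between 3160 and 9621 CPM per library, with Vim the most abundant over the 12 libraries, but not every marker was present in each group. Thy1 averaged 4.21 CPM in untreated Null and 0.0365 CPM in untreated DKO MEFs, where it had at most 4 counts, and 2.12 and 0.129 CPM after etoposide, and Fap had at most 24 counts in any library.

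**Figure D1:**
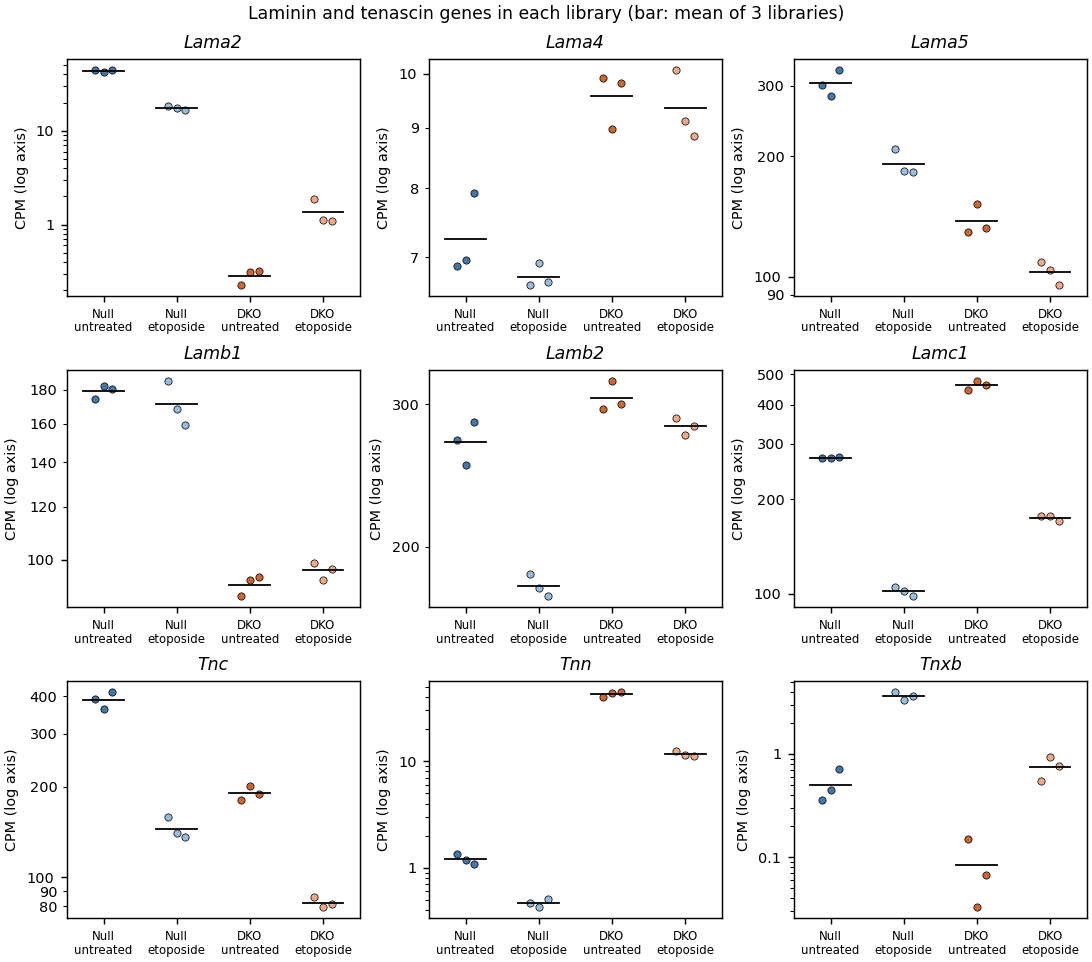
Level of each of the 9 genes in each of the 12 libraries, in CPM on log axes that differ between panels, with 1 dot per library and a bar at the mean of 3. Lama2 and Tnn differ most between the genotypes, in opposite directions, while Lama4 and Lamb1 libraries with and without etoposide overlap within each genotype.

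Among the alpha chains, Lama2 encodes the chain of muscle and peripheral nerve laminin whose loss causes a congenital muscular dystrophy, and it lies at chr10:26980036-27619758 on the minus strand (GRCm38). Lama2 was counted at 44.7, 42.2 and 44.4 CPM in untreated Null libraries and at 0.226, 0.315 and 0.319 CPM in untreated DKO libraries. After etoposide it was at 18.3, 17.7 and 16.8 CPM in Null libraries and at 1.88, 1.13 and 1.09 CPM in DKO libraries. The groups did not overlap, and etoposide went with lower Lama2 in every Null library and higher Lama2 in every DKO library. Behind the DKO values are 15, 29 and 19 counts untreated and 93, 83 and 110 counts after etoposide. Untreated DKO MEFs had 151-fold less Lama2 RNA (log2 fold change -7.24, SE 0.135, edgeR adjusted p = 1.33e-17), and the log2 difference after etoposide was -3.77 (SE 0.113, edgeR adjusted p = 6.21e-15). With etoposide Lama2 fell by 1.31 on the log2 scale in Null MEFs (SE 0.0707, edgeR adjusted p = 1.1e-11) and rose by 2.15 in DKO MEFs (SE 0.252, edgeR adjusted p = 6.45e-07). The difference between these changes, the interaction, was 3.46 (SE 0.254, edgeR adjusted p = 3.81e-09). Among counted fragments, fewer cells that make an RNA and less of it per cell cannot be told apart, here or for the other genes.

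Lama5, which encodes the most widely expressed alpha chain of adult basement membranes, had 302, 282 and 329 CPM in untreated Null libraries and 129, 152 and 133 CPM in untreated DKO libraries. After etoposide it had 208, 183 and 183 CPM in Null and 109, 104 and 95.2 CPM in DKO libraries. Lama5 was lower in DKO than in Null MEFs and lower with than without etoposide, with no overlap in any of these comparisons. It fell with etoposide by 0.67 on the log2 scale in Null MEFs (SE 0.0684, edgeR adjusted p = 8.56e-08) and by 0.43 in DKO MEFs (SE 0.0698, edgeR adjusted p = 3.21e-05), though with library size alone in place of TMM the DKO change was -0.15 (edgeR adjusted p = 0.0566). Between genotypes it differed by -1.14 untreated (SE 0.0693, edgeR adjusted p = 1.11e-10) and -0.90 after etoposide (SE 0.0697, edgeR adjusted p = 2.28e-09).

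Lama4 encodes a short alpha chain found around vessels and in fat and muscle. It was measured at 6.88, 6.96 and 7.92 CPM in untreated Null, 6.63, 6.92 and 6.66 CPM in etoposide-treated Null, 9.93, 8.99 and 9.81 CPM in untreated DKO and 10.1, 9.12 and 8.86 CPM in etoposide-treated DKO libraries. All 6 DKO libraries were above all 6 Null libraries, and within a genotype the treated and untreated libraries overlapped. The genotype difference was 0.40 on the log2 scale untreated (SE 0.0815, edgeR adjusted p = 0.000331) and 0.46 after etoposide (SE 0.0814, edgeR adjusted p = 6.62e-05). The etoposide changes, -0.10 in Null (edgeR adjusted p = 0.274) and -0.04 in DKO MEFs (edgeR adjusted p = 0.65), did not pass the test, which does not show that there was none.

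The beta chain genes differed from each other in both comparisons. Lamb1, the beta chain of the early embryonic laminins, had 175, 183 and 181 CPM in untreated Null libraries and 88.04, 93.0 and 94.1 CPM in untreated DKO libraries. With etoposide it had 186, 168 and 159.6 CPM in Null libraries and 98.9, 93.2 and 96.8 CPM in DKO libraries. Lamb1 was therefore lower in every DKO library than in any Null library, while treated and untreated libraries of a genotype overlapped. Its genotype difference was -0.97 untreated (SE 0.0477, edgeR adjusted p = 6.17e-12) and -0.83 after etoposide (SE 0.0476, edgeR adjusted p = 3.74e-11). The etoposide change was -0.07 in Null MEFs (SE 0.0467, edgeR adjusted p = 0.201) and 0.07 in DKO MEFs (SE 0.048, edgeR adjusted p = 0.194). Without etoposide-treated Null replicate 1 the Null change was -0.13 and passed (edgeR adjusted p = 0.00817), and its sign depends on the scaling.

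Lamb2, the beta chain of the neuromuscular junction and the kidney glomerulus, had 271, 253 and 286 CPM in untreated Null and 296, 321 and 299.9 CPM in untreated DKO libraries. After etoposide it had 185, 178 and 174 CPM in Null and 289, 275 and 282 CPM in DKO libraries. The treated Null libraries were the lowest of all, and each of the 4 comparisons between groups was free of overlap. Lamb2 fell by 0.59 on the log2 scale in Null MEFs (SE 0.0442, edgeR adjusted p = 1.1e-09). In DKO MEFs the change was -0.12 (SE 0.0439, edgeR adjusted p = 0.0234), and it turned to 0.16 with library size alone (edgeR adjusted p = 0.00408) and missed the threshold when only genes averaging 1 CPM or more were kept (edgeR adjusted p = 0.112, the highest of 22 alternatives). The interaction was 0.47 (SE 0.0622, edgeR adjusted p = 4.69e-06). DKO MEFs had more Lamb2 than Null MEFs after etoposide, by 0.65 (SE 0.0442, edgeR adjusted p = 3.65e-10), and by 0.18 untreated (SE 0.0439, edgeR adjusted p = 0.00156), where library size alone gave 0.06 (edgeR adjusted p = 0.261).

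Lamc1 encodes the gamma chain shared by most laminins and needed for basement membranes to form in the embryo. It had 270.6, 271 and 272 CPM in untreated Null and 444, 475 and 462 CPM in untreated DKO libraries, and 105, 102 and 98.2 CPM in treated Null and 177, 177 and 170.5 CPM in treated DKO libraries. Each of the 4 groups stood apart, with etoposide-treated libraries below untreated ones and DKO above Null. With etoposide Lamc1 fell by 1.41 on the log2 scale in Null (SE 0.0353, edgeR adjusted p = 3.2e-16) and by 1.40 in DKO MEFs (SE 0.0349, edgeR adjusted p = 4.25e-16). The interaction was 0.01 (SE 0.0488, edgeR adjusted p = 0.863). DKO MEFs had more Lamc1 by 0.76 untreated (SE 0.0343, edgeR adjusted p = 1.65e-12) and by 0.78 after etoposide (SE 0.0351, edgeR adjusted p = 1.53e-12).

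Of the tenascins, Tnc, the wound and stroma form, had 391, 363 and 413 CPM in untreated Null libraries and 181, 201 and 189.9 CPM in untreated DKO libraries. After etoposide it had 159, 140.1 and 136 CPM in Null and 86.3, 79.4 and 81.2 CPM in DKO libraries. Tnc was highest in untreated Null and lowest in treated DKO libraries, and no comparison between groups had overlap. It fell with etoposide by 1.42 on the log2 scale in Null (SE 0.0584, edgeR adjusted p = 2.38e-13) and by 1.21 in DKO MEFs (SE 0.0593, edgeR adjusted p = 4.43e-12). Its genotype difference was -1.03 untreated (SE 0.0578, edgeR adjusted p = 3.72e-11) and -0.82 after etoposide (SE 0.0591, edgeR adjusted p = 8.73e-10).

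Tnn encodes tenascin-W, known from developing bone and from tumor stroma. Its level was 1.35, 1.18 and 1.08 CPM in untreated Null and 40.4, 43.6 and 44.6 CPM in untreated DKO libraries, and 0.464, 0.424 and 0.510 CPM in treated Null and 12.4, 11.4 and 11.3 CPM in treated DKO libraries. Thus every DKO library, treated or not, was above every Null library. Untreated DKO MEFs had 35.2-fold more Tnn (log2 fold change 5.14, SE 0.0868, edgeR adjusted p = 4.57e-18). The untreated libraries were not used to select Tnn, but they come from the same lines, so this test is not independent of the selection. After etoposide, the comparison Tnn was selected on, the log2 difference was 4.65. Tnn fell with etoposide in both genotypes, by 1.39 in Null (SE 0.185) and by 1.88 in DKO MEFs (SE 0.0609) on the log2 scale, given with no test, and the Null values rest on 35 to 110 counts per library.

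Tnxb, the tenascin of loose connective tissue whose loss causes a form of Ehlers-Danlos syndrome, was the 1 tenascin of the 3 that rose with etoposide. It had 0.356, 0.446 and 0.710 CPM in untreated Null and 3.98, 3.31 and 3.60 CPM in treated Null libraries. In DKO libraries it had 0.150, 0.0326 and 0.0671 CPM untreated, from 10, 3 and 4 counts, and 0.546, 0.929 and 0.765 CPM after etoposide. Treated libraries were above untreated ones within each genotype, and DKO libraries below Null libraries within each treatment. The etoposide change was 2.88 on the log2 scale in Null (SE 0.218, edgeR adjusted p = 1.1e-09) and 3.27 in DKO MEFs (SE 0.472, edgeR adjusted p = 7.08e-06). The genotype difference was -2.63 untreated (SE 0.532, edgeR adjusted p = 0.000276) and -2.24 after etoposide (SE 0.195, edgeR adjusted p = 9.48e-09). Without untreated DKO replicate 1 the etoposide change in DKO MEFs was 3.98 and the untreated genotype difference -3.38, and without untreated DKO replicate 2 they were 2.74 and -2.14 (edgeR adjusted p at most 0.00446).

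**Figure D2:**
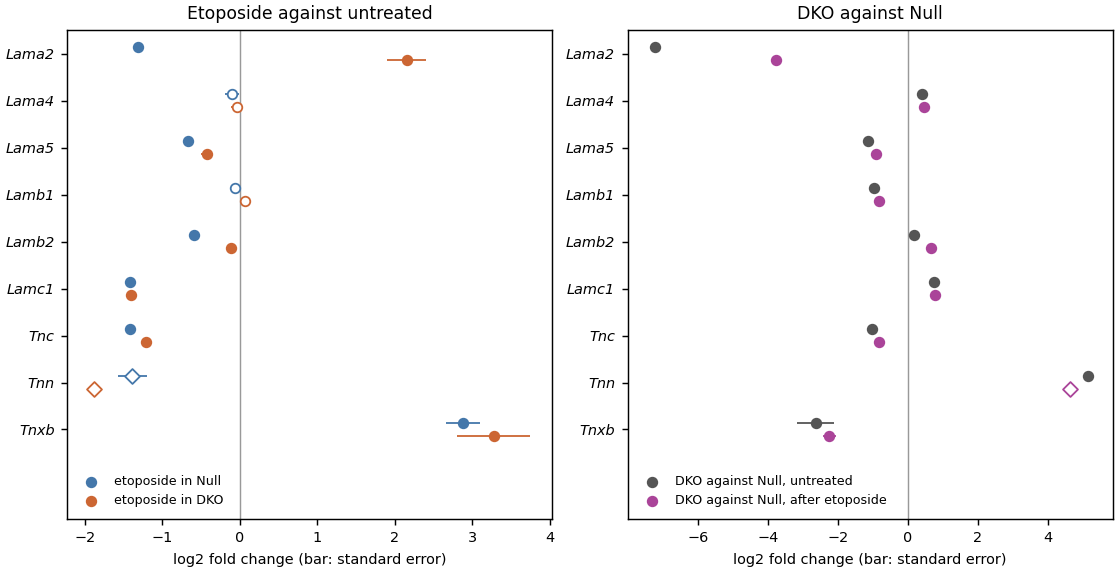
Log2 fold change of each gene with its standard error, for etoposide against untreated in each genotype and for DKO against Null in each treatment. Filled dots passed the edgeR test at an adjusted p under 0.05, open dots did not, and open diamonds are values of Tnn that use treated libraries, shown with no test.

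Taking the comparisons in turn, the first asked what etoposide did in Null MEFs. Of the 8 genes besides Tnn, 5 fell (Tnc, Lama2, Lama5, Lamb2 and Lamc1), where 37.2% of all 15220 genes tested fell, and Tnxb rose, where 42.3% of all genes rose. Their median log2 fold change was -0.629, beside 0.07 over all genes. These counts and this median describe genes chosen with values of these libraries known, not their families. Of the other family genes described later, Lama1, Lama3 and Lamc3 rose, Lamb3 fell and Tnr did not pass. Library size alone in place of TMM moved the median of all genes by 0.17 and changed the genes that rose and fell from 6435 and 5656 to 7806 and 4396. Under it the Null changes of Lama4 and Lamb1 turned from negative to 0.07 and 0.10, neither past the test.

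In DKO MEFs etoposide went with a fall of 4 of these 8 genes (Tnc, Lama5, Lamb2 and Lamc1), where 31.5% of all genes fell, and a rise of 2 (Tnxb and Lama2), where 43.7% of all genes rose. The median was -0.0787, beside 0.14 over all genes. Here library size alone moved the median of all genes by 0.27 and the genes that rose and fell from 6645 and 4790 to 9316 and 3004. Besides Lamb2, the sign of Lama4 turned, to 0.23, under that scaling (edgeR adjusted p = 0.014), and Lamb1 passed the test at 0.34 (edgeR adjusted p = 5.57e-06).

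The genotype comparison without drug separated all 9 genes. Higher in DKO were 4 (Tnn, Lama4, Lamb2 and Lamc1), where 33.3% of all genes were higher, and lower were 5 (Tnc, Tnxb, Lama2, Lama5 and Lamb1), where 33.4% of all genes were lower. The median was -0.97, beside -0.02 over all genes. Without Tnn, whose value here is not independent of its selection, 3 were higher and 5 lower, with a median of -0.999. Library size alone moved the median of all genes by -0.12 and the genes higher and lower from 5066 and 5091 to 3977 and 6393. After etoposide Lama4, Lamb2 and Lamc1 were higher, where 37.5% of all genes were higher, and the same 5 were lower, where 36.6% of all genes were lower. The median of these 8 was -0.826, beside -0.0045 over all genes. With DESeq2's size factors in place of TMM the genes higher and lower after etoposide went from 5701 and 5569 to 5072 and 6096. These comparisons share libraries with each other and with the etoposide comparisons.

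The interaction asked whether the etoposide change differed between the genotypes. It passed for 4 of the 8 genes besides Tnn, Lama2, Lamb2, Tnc and Lama5, each with a higher value in DKO, where 29.6% of all genes passed in that direction. In the other direction 0 of the 8 passed by edgeR, where 24.4% of all genes did, and 0 at an unadjusted p under 0.05, with DESeq2 or with limma. This count describes the chosen genes, not their families. Of the other family genes described later, Lama3 (-1.43) and Lamb3 (-0.45) passed in that other direction. Lama1, at the count floor in untreated DKO MEFs, passed in the first, and Lamc3 and Tnr did not pass. The value of Tnn was -0.49 (SE 0.208), given with no test. The median of the 8 was 0.224, beside 0.05 over all genes. Library size alone moved the median of all genes by 0.10 and the genes higher and lower from 4507 and 3719 to 5734 and 3055, while DESeq2's size factors gave 3796 and 4192 with a median of -0.0155, so which direction has more genes depends on the scaling. The interactions of Tnc, 0.21 (SE 0.0821, edgeR adjusted p = 0.0409), and Lama5, 0.24 (SE 0.0975, edgeR adjusted p = 0.0474), were near the threshold and missed it in 12 and 15 of 21 alternatives.

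Single libraries moved these interaction calls. The Tnc call was lost by edgeR without untreated Null replicate 1 or 3 (adjusted p = 0.0706 and 0.105), untreated DKO replicate 1 or 3 (0.153 and 0.0641), treated Null replicate 2 or 3 (0.104 for each) and treated DKO replicate 1 or 3 (0.141 and 0.0624). The Lama5 call was lost by edgeR without untreated Null replicate 1 or 3 (adjusted p = 0.0677 and 0.13), untreated DKO replicate 1 or 3 (0.168 and 0.0981), treated Null replicate 2 or 3 (0.119 and 0.105) and treated DKO replicate 1 or 2 (0.156 and 0.105). Lamb1 passed without treated Null replicate 1 (edgeR adjusted p = 0.00844), which made the count 5. The count of 4 became 2 without untreated Null replicate 1 or 3, untreated DKO replicate 1 or 3, treated Null replicate 2 or 3, or treated DKO replicate 1. The Lama2 and Lamb2 interactions passed in each of the 21 alternatives.

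Levels of different genes were compared as RPKM, the CPM per kilobase of annotated exon. In untreated Null MEFs the order of the 9 was Tnc (50.1 ± 3.22 RPKM), Lamb2 (44.3 ± 2.72), Lamc1 (32.8 ± 0.0948), Lama5 (26.7 ± 2.06), Lamb1 (18.1 ± 0.417), Lama2 (2.68 ± 0.0845), Lama4 (0.601 ± 0.0480), Tnn (0.207 ± 0.0235) and Tnxb (0.0413 ± 0.0151 RPKM; SD, n = 3 each). The Tnc and Lamb2 libraries overlapped, and the other neighbours did not. In untreated DKO MEFs Lamc1 (55.7 ± 1.92 RPKM), Lamb2 (50.2 ± 2.19 RPKM) and Tnc (24.5 ± 1.31 RPKM) came first, Tnn had moved to the sixth place with 7.37 ± 0.377 RPKM, and Lama2 was second to last with 0.0175 ± 0.00323 RPKM (SD, n = 3 each). Here no neighbours overlapped.

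After etoposide Lamb2 led in both genotypes, at 29.4 ± 0.950 RPKM in Null and 46.3 ± 1.16 RPKM in DKO MEFs (SD, n = 3 each). In treated Null MEFs Tnc (18.7 ± 1.56 RPKM), Lamb1 (17.3 ± 1.34 RPKM) and Lama5 (16.8 ± 1.28 RPKM) followed and overlapped as neighbours, and Tnn was last at 0.0801 ± 0.00746 RPKM (SD, n = 3 each). In treated DKO MEFs Lamc1 (21.1 ± 0.427 RPKM) came second, neighbours Lamb1 (9.71 ± 0.289 RPKM) and Lama5 (9.02 ± 0.610 RPKM) overlapped, and so did Lama2 (0.0838 ± 0.0272 RPKM) and Tnxb (0.0611 ± 0.0157 RPKM; SD, n = 3 each). The place of Lamb1 depends on the length used: per kilobase of its longest transcript it was above Lama5 in untreated Null MEFs (31.0 against 26.7 RPKM) and in untreated DKO MEFs (15.9 against 12.1 RPKM), and above Tnc in treated Null (29.6 against 20.4 RPKM) and treated DKO MEFs (16.7 against 11.6 RPKM).

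Adding the other alpha chain, beta chain and tenascin genes shows which supplied most RNA. Lama5 held 88.7 ± 0.430% of the summed alpha chain RPKM in untreated Null MEFs, 93.5 ± 0.790% in untreated DKO MEFs, and 87.0 ± 0.874% and 90.1 ± 0.533% in the treated groups (SD, n = 3 each). Lama2 made up 8.91 ± 0.459% in untreated Null and 0.135 ± 0.0215% in untreated DKO MEFs, whereas Lama4 made up 2.00 ± 0.0810% and 6.18 ± 0.789% (SD, n = 3 each). Among beta chains Lamb2 had 65.2 ± 1.45% untreated and 57.2 ± 0.208% treated in Null, and 77.6 ± 0.529% and 78.1 ± 0.204% in DKO MEFs (SD, n = 3 each). The 3 untreated DKO libraries all had a smaller Lama2 share and a larger Lamb2 share than any untreated Null library.

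Of the tenascin RPKM, Tnn made up 0.413 ± 0.0581% in untreated Null and 23.1 ± 0.722% in untreated DKO MEFs, and 0.422 ± 0.0579% and 15.8 ± 0.285% after etoposide (SD, n = 3 each), and Tnc nearly all of the rest. These shares depend on the exon lengths: with longest transcripts Lama5 held 81.9% and Lamb2 55.4% in untreated Null MEFs. Lama2 then made up 13.99% in untreated Null and 0.217% in untreated DKO MEFs, and Lama4 3.68% and 11.6%. In treated Null MEFs Lamb2 then held 46.9% and Lamb1 43.6% of the beta chain RPKM.

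Summed over their genes, alpha chain RPKM went with etoposide from 30.1 ± 2.18 to 19.3 ± 1.31 in Null and from 12.9 ± 1.03 to 10.02 ± 0.678 in DKO MEFs, and beta chain RPKM from 67.9 ± 2.76 to 51.4 ± 1.74 and from 64.7 ± 2.47 to 59.3 ± 1.61 (SD, n = 3 each). Tenascin RPKM went from 50.4 ± 3.23 to 19.1 ± 1.58 in Null and from 31.9 ± 1.58 to 12.7 ± 0.547 in DKO MEFs (SD, n = 3 each). RNA sums do not measure how many trimers are made.

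**Figure D3:**
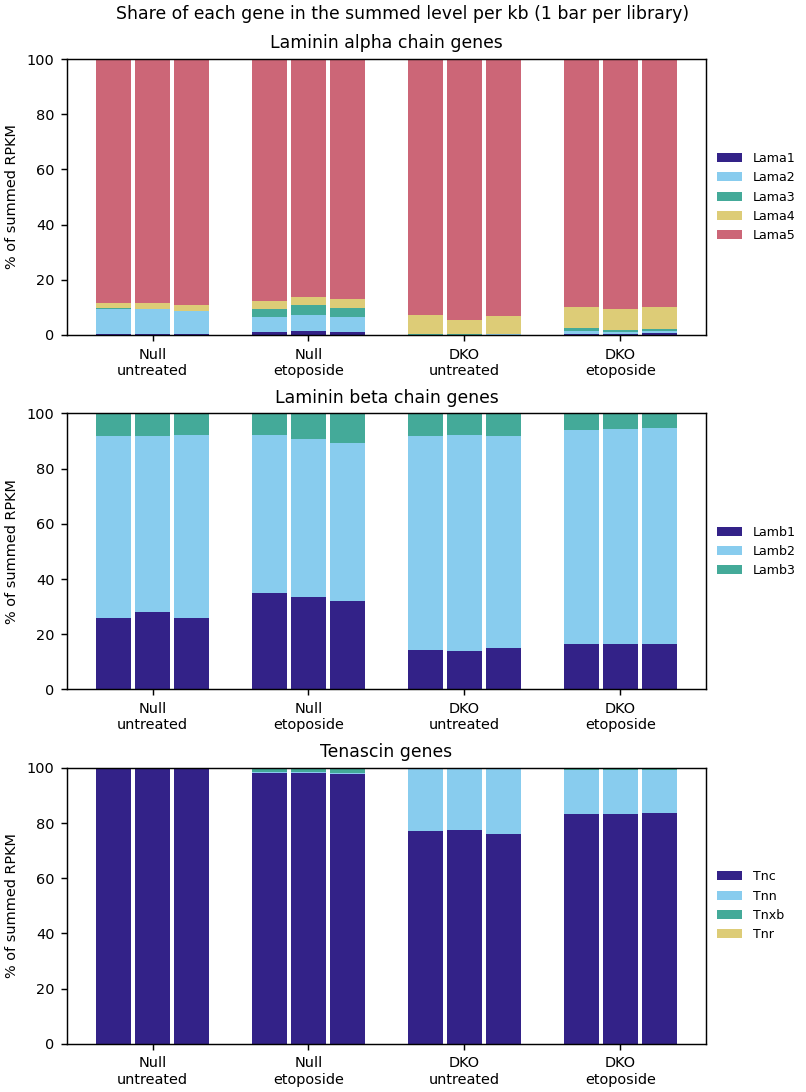
Share of each gene in the summed RPKM of the alpha chains, the beta chains or the tenascins, in percent, with 1 stacked bar per library. Lama5, Lamb2 and Tnc hold the largest share of their class in each of the 12 libraries, and Tnn takes more than a thin sliver only in DKO libraries.

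Of the other family genes, Lama1, Lama3, Lamc3 and Tnr were at low counts in untreated cells. Lama3, an alpha chain gene of epithelial laminin, rose with etoposide by 3.56 on the log2 scale in Null (SE 0.165, edgeR adjusted p = 1.36e-12), from 0.583 ± 0.120 to 6.94 ± 0.476 CPM, and by 2.13 in DKO MEFs (SE 0.315, edgeR adjusted p = 1.05e-05), from 0.210 ± 0.0659 to 0.950 ± 0.196 CPM (SD, n = 3 each). Lamb3, which encodes a beta chain of the same laminin, fell by 0.68 in DKO MEFs (SE 0.0701, edgeR adjusted p = 1.24e-07). For Lamb3 in Null MEFs the change was -0.23 (SE 0.0677, edgeR adjusted p = 0.00555), and -0.06 with library size alone (edgeR adjusted p = 0.436). The interaction was -0.45 for Lamb3 (SE 0.0974, edgeR adjusted p = 0.000756) and -1.43 for Lama3 (SE 0.44, edgeR adjusted p = 0.0108, and 0.0643 without untreated DKO replicate 2).

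Lamc3, a gamma chain gene, rose with etoposide by 3.98 in Null (SE 0.206, edgeR adjusted p = 1.61e-12), from 37, 20 and 26 counts to 491, 484 and 477, and by 4.10 in DKO MEFs (SE 0.521, edgeR adjusted p = 1.06e-06), from 1, 5 and 4 counts to 20, 59 and 104. Lama1, the alpha chain of the early embryo, had 68, 34 and 46 counts in untreated Null and 0, 0 and 1 in untreated DKO libraries, at least 16.2-fold lower against a floor of 3 counts per library. It rose in Null MEFs by 1.62 (SE 0.205, edgeR adjusted p = 1.66e-06), and in treated DKO MEFs, with 23, 34 and 49 counts, it was at least 11.1-fold above that floor. Tnr, the tenascin of the nervous system, had at most 45 counts in any library. Its etoposide changes were 0.65 in Null (edgeR adjusted p = 0.335, and 1.37 without untreated Null replicate 1) and 0.05 in DKO MEFs (edgeR adjusted p = 0.923). The untreated genotype difference of Tnr was 1.38 (SE 0.544, edgeR adjusted p = 0.0334) and 2.11 without untreated Null replicate 1. It missed the threshold in 5 of 21 alternatives. Among these were the fits without untreated Null replicate 2 or 3 (edgeR adjusted p = 0.143 and 0.0633) or untreated DKO replicate 3 (0.182).

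The proteins that laminins and tenascins work with were read in lists, each beside the medians over all genes of 0.07 and 0.14 for etoposide in Null and DKO, and -0.02 and -0.0045 for genotype untreated and after etoposide. Among all genes 42.3% rose and 37.2% fell with etoposide in Null and 43.7% and 31.5% in DKO MEFs, and in DKO against Null 33.3% were higher and 33.4% lower untreated and 37.5% and 36.6% after etoposide. The counts below are to be read against these shares. All 17 basement membrane partners were tested. With etoposide 9 rose and 7 fell in Null (median 0.25) and 6 rose and 10 fell in DKO MEFs (median -0.13). Without genes at the count floor in a group, these medians were 0.0012 and -0.22. In DKO against Null 6 were higher and 7 lower untreated (median -0.18, and -0.04 with genes at the count floor set to their bound), and 5 higher and 10 lower after etoposide (median -0.40). Nid1, a nidogen that ties laminin to collagen IV, stood at 102.6 ± 1.75 CPM in untreated Null and 1.5 ± 0.213 CPM in untreated DKO MEFs (SD, n = 3 each), a log2 difference of -6.12 (SE 0.0712, edgeR adjusted p = 1.03e-19). Its relative Nid2 differed by -1.89 (SE 0.039, edgeR adjusted p = 4.82e-17), while the calcium-binding matrix protein gene Smoc2 was higher by 3.44 (SE 0.0363, edgeR adjusted p = 3.09e-20). With etoposide in Null MEFs Npnt, an integrin ligand of basement membranes, rose from 3.58 ± 0.792 to 34.9 ± 0.796 CPM (mean ± SD of 3, log2 rise 3.28, SE 0.112, edgeR adjusted p = 1.92e-14), and Hspg2, encoding perlecan, fell by 1.27 (SE 0.0831, edgeR adjusted p = 1.7e-10).

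Of the laminin receptors all 15 were tested. With etoposide 9 rose and 6 fell in Null (median 0.55), where 42.3% and 37.2% of all genes did, and 5 rose and 10 fell in DKO MEFs (median -0.38), where 43.7% and 31.5% did. Between genotypes 7 were higher and 6 lower untreated (median 0.29), and 4 higher and 9 lower after etoposide (median -0.24). Itgb4, the integrin chain of hemidesmosomes, rose in Null MEFs from 0.468 ± 0.0525 to 14.8 ± 0.938 CPM (SD, n = 3 each), by 4.98 on the log2 scale (SE 0.147, edgeR adjusted p = 2.53e-15), and in DKO MEFs by 1.498 (SE 0.212, edgeR adjusted p = 6.22e-06), with an interaction of -3.49 (SE 0.323, edgeR adjusted p = 7.15e-08). Untreated libraries had at most 34 counts of Itgb4 in Null and 56 in DKO MEFs. Bcam, a receptor for the Lama5 chain, stood at 9.96 ± 1.07 CPM in untreated Null and 0.244 ± 0.0521 CPM in untreated DKO MEFs (SD, n = 3 each), a difference of -5.30 (SE 0.163, edgeR adjusted p = 9.2e-15), and the difference after etoposide was -7.46 (SE 0.116, edgeR adjusted p = 2.83e-18). DKO libraries had at most 28 counts of Bcam untreated and 44 treated. In untreated cells Itga6 was lower in DKO, by -3.20 (SE 0.0548, edgeR adjusted p = 4.77e-18), and Itga7 higher, by 1.88 (SE 0.0445, edgeR adjusted p = 2.52e-16). Both are laminin-binding integrin alpha chains. Dag1, which encodes dystroglycan, fell by 0.73 with etoposide in Null MEFs (SE 0.0401, edgeR adjusted p = 1.45e-11).

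Dystroglycan binds laminin through a sugar chain, and the 18 genes that build it were all tested. Of these 11 rose and 5 fell with etoposide in Null (median 0.27), beside 42.3% and 37.2% of all genes, and 13 rose and 2 fell in DKO MEFs (median 0.39), beside 43.7% and 31.5%. The transferase gene Pomgnt2 rose by 2.75 in Null (SE 0.0933, edgeR adjusted p = 1.72e-14) and by 2.25 in DKO MEFs (SE 0.0858, edgeR adjusted p = 1.38e-13). Between genotypes 8 were higher and 6 lower untreated (median -0.01), and 9 higher and 5 lower after etoposide (median 0.10).

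Of 14 tenascin receptors, 13 were tested, all but Ptprz1. With etoposide 8 rose and 5 fell in Null (median 0.48) and 3 rose and 6 fell in DKO MEFs (median -0.23). Between genotypes 6 were higher and 5 lower untreated (median 0.00), and 2 higher and 7 lower after etoposide (median -0.24). Without the 2 genes at the count floor in a group, the untreated genotype median was 0.23. The etoposide medians were then 0.14 in Null and -0.28 in DKO MEFs. Itga8, an integrin chain that binds Tnc and Npnt, rose in Null MEFs from 0.129 ± 0.0351 to 4.67 ± 0.698 CPM (mean ± SD of 3), a rise of 5.16 on the log2 scale (SE 0.251, edgeR adjusted p = 2.58e-12). The interaction of Itga8 was -5.19 (SE 0.388, edgeR adjusted p = 4.86e-09), with 0.935 ± 0.114 CPM untreated and 0.924 ± 0.0946 CPM treated in DKO MEFs (SD, n = 3 each). Both values rest on at most 11 counts of Itga8 per untreated Null library. The fibronectin receptor chain gene Itga5 fell by 1.96 in Null (SE 0.0571, edgeR adjusted p = 2.23e-15) and by 1.88 in DKO MEFs (SE 0.0566, edgeR adjusted p = 5.29e-15).

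All 18 matricellular partners, secreted regulators of attachment that share this role with tenascins, were tested. With etoposide 5 rose and 11 fell in Null (median -0.42), and 16 fell in DKO MEFs, where the other 2 did not pass (median -1.03). In untreated cells 15 were higher and 3 lower in DKO than in Null MEFs (median 1.45), beside 33.3% and 33.4% of all genes, and after etoposide 11 were higher and 5 lower (median 0.64), beside 37.5% and 36.6%. Thbs1, thrombospondin 1, stood at 21783 ± 701 CPM in untreated DKO and 1507 ± 58.7 CPM in treated DKO MEFs (SD, n = 3 each), a change of -3.85 (SE 0.0526, edgeR adjusted p = 4.27e-19). Postn, encoding the Tnc-binding protein periostin, was higher in untreated DKO MEFs by 4.10 (SE 0.0615, edgeR adjusted p = 1.17e-18), and the proteoglycan gene Vcan lower by -3.44 (SE 0.0697, edgeR adjusted p = 3.76e-17). Ccn4, listed under its older symbol Wisp1, fell with etoposide by 3.12 in Null (SE 0.0325, edgeR adjusted p = 9.88e-21) and by 3.28 in DKO MEFs (SE 0.0327, edgeR adjusted p = 2.45e-20).

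Of 14 proteases that can process laminin, tenascin or their neighbours, 12 were tested, without Mep1b and Mmp7. With etoposide 7 rose and 4 fell in Null (median 0.12), and 3 rose and 9 fell in DKO MEFs (median -0.64). Between genotypes 6 were higher and 3 lower untreated (median 0.25), and 2 higher and 9 lower after etoposide (median -0.87). Without the 2 genes at the count floor in a group, the etoposide medians were -0.019 in Null and -0.77 in DKO MEFs. The untreated genotype median was then 0.61. Plau, the urokinase gene, rose in Null MEFs by 2.10 (SE 0.0375, edgeR adjusted p = 6.02e-18) and had an interaction of -3.64 (SE 0.0529, edgeR adjusted p = 1.24e-17), going from 113.5 ± 3.24 to 39.1 ± 1.12 CPM in DKO MEFs (SD, n = 3 each). Tll1, a tolloid-like protease of the family that trims laminin chains, was higher in untreated DKO MEFs, where it averaged 260.0 ± 6.96 CPM and in Null MEFs 16.96 ± 0.819 CPM (mean ± SD of 3, log2 difference 3.94, SE 0.047, edgeR adjusted p = 1.15e-19).

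**Figure D4:**
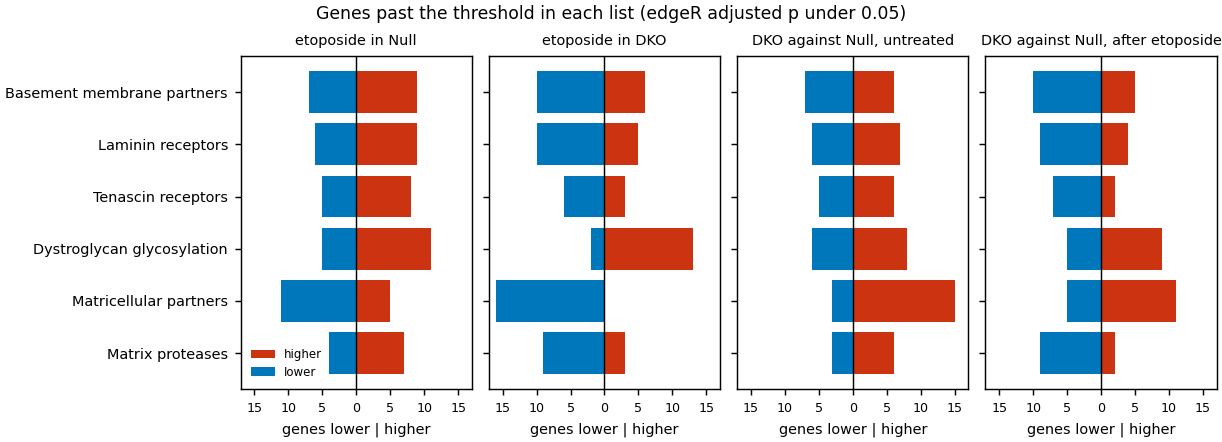
Number of genes past the edgeR test (adjusted p under 0.05) in each list, higher to the right and lower to the left, for the 4 comparisons between groups. The matricellular partners show 15 higher genes in untreated DKO against Null and 16 lower genes with etoposide in DKO.

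The genes differ in how much DNA they span, which was set beside the etoposide change. Lama2 spans 639.7 kb, Lama4 144.7 kb, Lamc1 113.9 kb, Tnc 87.2 kb, Tnn 68.6 kb, Lamb1 64.4 kb, Lama5 49.5 kb, Tnxb 49.3 kb and Lamb2 10.8 kb in GENCODE M21. Over all genes the median log2 change in Null and DKO MEFs was 0.20 and 0.23 for the 3995 genes under 10 kb and 0.15 and 0.20 for the 4812 genes of 10 to 30 kb. It was -0.09 and 0.0073 for the 4260 genes of 30 to 100 kb, -0.37 and -0.26 for the 1630 genes of 100 to 300 kb, and -0.41 and -0.30 for the 390 longer genes. Within the class of 100 to 300 kb, Lamc1 fell and Lama4 did not pass the test, and within that of 30 to 100 kb Tnxb rose while Tnc and Lama5 fell. The part of span in these changes was not tested.

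Upstream sequences are shown for Tnn and Lama2, which had the highest and the lowest genotype difference of the 9 in untreated cells, and for Tnc, whose fall with etoposide in Null MEFs was close to those of Lamc1 and Tnn (1.42, 1.41 and 1.39 on the log2 scale), in an order that single libraries turn. RefSeq promoter windows on GRCm38.p6 run from 250 bases before to 50 bases after a start and were found for 7 of the 9 genes, in 8 windows, without Lama4 and Lamc1. The bases before the start that lie in no annotated exon are chr1:160153581-160153825 for Tnn, chr10:27616943-27617192 for Lama2 and chr4:64047016-64047265 for Tnc, each on the minus strand and written 5′ to 3′. Capitals mark the letters TATAAA, and the Lama2 window lies in an intron of the longest GENCODE model of the gene.
Tnn: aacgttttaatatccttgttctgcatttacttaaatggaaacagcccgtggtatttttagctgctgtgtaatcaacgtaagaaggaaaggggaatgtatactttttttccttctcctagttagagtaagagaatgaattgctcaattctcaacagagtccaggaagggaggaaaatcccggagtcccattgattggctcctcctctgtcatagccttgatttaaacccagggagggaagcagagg
Lama2: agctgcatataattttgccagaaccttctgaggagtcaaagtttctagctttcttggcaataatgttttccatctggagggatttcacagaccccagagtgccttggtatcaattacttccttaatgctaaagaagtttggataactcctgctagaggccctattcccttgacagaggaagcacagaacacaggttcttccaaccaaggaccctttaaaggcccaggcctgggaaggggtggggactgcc
Tnc: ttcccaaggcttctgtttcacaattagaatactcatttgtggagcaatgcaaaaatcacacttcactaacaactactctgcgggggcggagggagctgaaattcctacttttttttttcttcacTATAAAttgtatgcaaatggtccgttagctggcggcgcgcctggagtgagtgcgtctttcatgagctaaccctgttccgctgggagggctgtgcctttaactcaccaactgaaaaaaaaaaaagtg
Both strands of all 32851 mouse windows of 300 bases were searched. The letters CACGTG, which TFEB and TFE3 are known to bind, are in 7.15% of all windows and in 0 of the 7 genes, and the p53 half-site is in 8.36% of all windows and in 0 of the 7. The related letters CATGTG are in 14.2% of all windows and in those of Tnxb and Lamb1, at -129 and -61 from the start. TATAAA is in 13.6% of all windows and in both windows of Tnc, at -126 and -205 from their starts, and TGANTCA is in 7.81% and in that of Tnxb, at -55. The last 3 motifs were picked after the windows had been read. A match is a description of letters, and no match says only that they are not in these windows.

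Genes whose log2 CPM followed a member most closely over the 12 libraries were listed from 9353 genes that averaged 10 CPM or more, as a description with no p. The 12 points share 4 groups, so a large r follows from similar group means. For Tnn these were Nrbp1 (Pearson r 0.9977), the laminin receptor chain gene Itga7 (0.9968) and Dlat (0.9968). For Tnc they were Kdm2a (0.9962), Chd3 (0.9961) and Rab3gap2 (0.9956), and for Lamc1 they included Cdc42bpa (0.9987) and Tsc22d3 (0.9979). Itga7 went with Tnn in order, at 16.9 CPM in untreated Null, 62.4 in untreated DKO, 13.6 in treated Null and 37.4 CPM in treated DKO MEFs, over a narrower range.

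Markers of other cell types were summed for each library, since laminins differ between tissues. The 8 muscle markers summed to 2.29 to 2.38 CPM in untreated Null, 0.406 to 0.705 in untreated DKO, 36.8 to 41.3 in treated Null and 3.57 to 3.81 CPM in treated DKO libraries, with Des the most abundant and Myf5 at 0 in all 12. The 8 Schwann and neural markers summed to 10.1 to 11.4, 1.79 to 2.72, 11.2 to 11.7 and 5.18 to 5.63 CPM in the same order, with Erbb3 the most abundant and Foxd3 and Cdh19 at or below 3 counts in every library. The 8 endothelial markers summed to 0.169 to 0.270, 0.0652 to 0.211, 4.80 to 5.36 and 1.499 to 2.02 CPM. Vwf was on top in the mean of the 12 libraries. In untreated DKO MEFs, however, Vwf (0.0204 CPM) was below Tek (0.0572 CPM), Kdr (0.0410 CPM) and Pecam1 (0.0349 CPM). Both the muscle and the neural sums were lower in untreated DKO than untreated Null libraries, as Lama2 was.

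The 8 epithelial markers summed to 2.26 to 2.87, 5.10 to 6.04, 3.59 to 4.23 and 2.24 to 2.89 CPM in that order. Krt8 was on top in the mean of the 12 libraries, but Cdh1 was above it in both treated groups. Cdh1 and Krt8 averaged 1.02 and 0.869 CPM in treated Null and 1.26 and 0.513 CPM in treated DKO MEFs. The 8 macrophage markers summed to 2.03 to 2.21, 1.71 to 2.75, 14.03 to 14.99 and 3.91 to 4.95 CPM, with Cd68 on top and Tyrobp at or below 3 counts in every library. The 8 cartilage and bone markers summed to 105.8 to 111.6, 100.2 to 102.6, 77.03 to 82.0 and 21.4 to 25.8 CPM. Runx2 was on top in the mean of the 12 libraries, but in treated Null MEFs Col2a1 (44.7 CPM) and Sox9 (14.8 CPM) were above Runx2 (9.04 CPM). The 10 fibroblast markers summed to 5764 to 5931, 9333 to 9621, 3160 to 3189 and 3788 to 3946 CPM. None of these lists had every gene at 0, and their part in the laminin and tenascin results was not tested.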

How the data were processed

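The authors deposited whole counts of read pairs per gene symbol for 12 libraries, without normalization. Their methods name HISAT2 and HTSeq on GENCODE, and the labels name featureCounts and mm10. Tool versions and the strand setting are not given, so exons shared with an opposite-strand gene may have lost or gained counts. Such exons make up 3.86% of Lama2 and 2.26% of Tnc exon length, and 6.27% of Lamc3, 3.44% of Tnr and 1.83% of Lama3. The members and lists were chosen with earlier results of these data known.

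Counts were fitted in R 4.3.3 with edgeR 4.0.16: filterByExpr, TMM, and 1 quasi-likelihood model (glmQLFit, glmQLFTest) of the 4 groups with no block, over 15220 genes, with Benjamini-Hochberg adjustment in each of 5 comparisons and a threshold of 0.05. Replicates differed by more than counting noise (chi-square per degree of freedom 11.1 to 23). Each SE is the log2 fold change divided by the square root of F. Floors of 3 counts per library cover counting error only. The table has 24421 rows for genes, of which 2 repeat a symbol. Of the 24419 different symbols, 23358 matched GENCODE M21 (GRCm38) directly and 650 through a synonym; RPKM uses summed exon length. From each partner list, genes that passed, averaged 1 CPM or more and had the 2 highest or 2 lowest changes in a comparison could be named. Some genes chosen by this and the other naming rules are not reported here. Alternatives were DESeq2 1.42.0, its size factors, limma 3.58.1 (trend, robust, as in the study), library size alone, no filter, a filter on means under 1 CPM, the replicate number as a block, only the 6 libraries compared, longest transcripts, and each library left out. A fit without Rn45s, Rmrp and Rpph1 and the legacy quasi-likelihood fit were added after seeing the data.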

Additional observations from a re-analysis of the deposited data

Results flagged for a closer look

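The etoposide change differed between the genotypes by the interaction test for 4 of the 8 genes besides Tnn, given as the log2 change in DKO minus that in Null MEFs. All 4 were higher in DKO, where 29.6% of all 15220 genes passed in that direction and 24.4% in the other, so a count of 4 is not read as particular to these genes. For Lama2 the difference was 3.46, with a fall in Null and a rise in DKO MEFs. For Lamb2 it was 0.47, with a larger fall in Null MEFs. For Tnc it was 0.21 and for Lama5 0.24, both near the threshold. Each genotype is 1 line, so a difference between lines and an effect of the edited genes cannot be told apart. The DKO levels of Lama2 rest on 15 to 110 counts per library. A rise from low counts in DKO MEFs was not particular to Lama2, since Tnxb, Lama1, Lama3 and Lamc3 rose too. The 8 endothelial markers summed there to 0.0652 to 0.211 CPM untreated and 1.499 to 2.02 CPM treated. The muscle, neural and macrophage sums also rose, while the epithelial, cartilage and bone, and fibroblast sums fell. Whether these changes share a cause was not tested.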

How the results depend on the processing

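The count of genes past the threshold in each comparison was within 1.5 times the reported count in 109 of 109 recomputed values, and the count among the laminins and tenascins in 98 of 109, with Tnn counted only in untreated cells. The exceptions were all in the interaction, where the count of 4 became 2 with DESeq2's size factors, with DESeq2, with the 1 CPM filter and without Rn45s, Rmrp and Rpph1 (chosen after seeing the data), and ranged from 2 to 5 when each library was left out. Of 894 recomputed log2 fold changes of these genes, 844 kept their direction and their side of the threshold, 30 lost the threshold, 4 gained it and 16 changed sign.

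Signs changed with library size alone for etoposide in Null (Lama4 0.065, Lamb1 0.10) and in DKO MEFs (Lama4 0.23, Lamb2 0.16), and with only genes averaging 1 CPM or more for Lamb1 in Null MEFs (0.021). The interaction of Lamc1 became -0.051 with DESeq2's size factors, -0.051 with DESeq2, -0.038 with the 1 CPM filter and -0.00441 without Rn45s, Rmrp and Rpph1, and -0.0294 to 0.0347 when each library was left out. That of Lama4 became -0.00116 with DESeq2's size factors and -0.00657 to 0.10 with libraries left out, that of Tnxb -0.12 to 1.12 with libraries left out, and that of Lamc3 -0.53 with limma and -0.26 to 0.39 with libraries left out. The change of Tnr in DKO MEFs became -0.0527 with DESeq2, -0.0536 with the replicate block and -0.0243 with the legacy fit, and -0.29 to 0.50 with libraries left out. The genotype difference of Tfe3 after etoposide was -0.055 to 0.0331 with libraries left out. Apart from the scaling, the cause was not tested.

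Replicate numbers did not pair libraries: over 18 same-number pairs the correlation of residuals ran from -0.032 to 0.0429, with 0 above 0.1. Level per kilobase moved by over 1 SD with longest transcripts in 24 of 36 values and chain share in 31 of 36. Depth limits Tnxb and the DKO levels of Lama2, and the smallest library has 45577023 counts.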
